A study of Arabidopsis thaliana with 8 samples.

Results

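The genes examined here are 8622 nuclear genes of Arabidopsis thaliana whose change in translational efficiency was measured between etiolated and illuminated seedlings. They were chosen from 27415 annotated genes as nuclear genes outside the photosynthesis and auxin families that held at least 50 reads in the coding sequence (CDS) in every library, whatever their change. Of 27205 nuclear genes, 18165 outside both families fell below that read minimum, and 115 photosynthesis and 83 auxin genes above it were set aside by family. All groups were wild-type Col-0 seedlings, kept on Murashige-Skoog medium without light for 4 days. The dark group was harvested directly and the light group after 4 h of white light. No dark group was kept for the same 4 h, so light cannot be told apart from the added time. Changes after light are called light changes below in that sense. From each, total steady-state mRNA (mRNA) and the fragments left by RNase I around ribosomes (ribosome-protected reads, RP) were sequenced, in 2 libraries per group (repeats 1 and 2, 8 libraries in 4 groups). Whether a repeat was a culture of its own is not in the labels, so the p-values describe the spread between these libraries, which may be technical. Whole seedlings were used: 8 of 14 root marker genes reached the read minimum, and fewer cells of a type cannot be told apart from less RNA per cell.

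Translational efficiency is the ratio of ribosome-protected reads to mRNA reads of a gene. It reflects how densely ribosomes load an mRNA, and it changes with the rate at which ribosomes initiate on that mRNA. A seedling raised in darkness lives on seed reserves and holds undeveloped plastids; on illumination it builds chloroplasts, most of whose proteins are encoded in the nucleus, made on cytosolic ribosomes and imported. Here the change in efficiency is the light change in RP reads minus the light change in mRNA reads, on the log2 scale, so that 1 is a doubling of the ratio. Each library was scaled by its total and by a TMM factor, estimated over all 8 libraries of both kinds together. The change of a gene is thus relative to the other genes, and a change shared by all mRNAs was not measured.

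In edgeR's quasi-likelihood test over all 8 libraries, the efficiency of 0 of the 8622 genes changed past an adjusted p of 0.05, as for 0 of all 19823 genes tested (0%). The smallest adjusted p was 1.00. At an unadjusted p under 0.05 there were 87 of the 8622 genes (1.01%), all with higher efficiency after light. Among all tested genes there were 261 (1.32%), 199 higher and 62 lower. That none of the 8622 genes reached it with lower efficiency holds for this fit, which takes no account of the repeat numbers. With the repeat number as a block, 544 of the 8622 genes did (6.31%), 460 higher and 84 lower. This share was near that of all tested genes, 1233 (6.22%), 924 higher and 309 lower. Again 0 passed after adjustment. DESeq2 called 9 of the 8622 genes (0.104%), all higher, and 15 of all tested genes (0.0757%), 13 higher and 2 lower. Within the repeats, which share no library, efficiency was higher by over 1 (log2) in both repeats for 65 genes (0.754%). It was lower by over 1 in both for none, and no gene passed 1 in opposite directions. In repeat 1 taken singly 119 genes were higher and 9 lower by over 1, and in repeat 2 the counts were 164 and 4. With so few genes below -1, hardly any could be lower in both or opposite, so these zeros say little about agreement of the repeats. The 65 genes are described below as a group picked on these values, with no test. The annotation names a cell compartment for 42 of the 65, and 30 of these (71.4%) were placed in the chloroplast or plastid, against 19.8% of all the genes with such an annotation. With genes of no named compartment counted in, the shares were 46.2% of the 65 and 12.9% of the 8622.

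The window around the start codon is shown for 12 of the genes described below, since it is the stretch of an mRNA at which ribosomes begin. Each runs from 15 bases before the ATG to 12 bases from its A onward, read from the TAIR10.1 assembly, with positions -3 to +4 in capitals (the A of ATG is +1). The first 8 had higher and the last 4 lower efficiency after light in both repeats.
AGY1: ggctcgccgtcgACGATGAtggtgtct
ALDH11A3: ttgtttcagagaTCAATGGccgggact
SVR3: gcggagaaaattGAAATGGagctcagc
EMB1303: caagctgctttaGCCATGGctatggcg
TOC159: agtagcaaagcgGAAATGGactcaaag
FAD6: attttctgcttcCCAATGGcttccaga
CA2: ccttgctctgtaAACATGGtccccttt
ICL: ataaaagttaaaGCCATGGctgcatct
HAT1: ccaagagacaatATCATGAtgatgggt
TRFL1: ttatgcatccaaGTAATGGtgtcacat
RUB1: gaaaggaaaaaaAAAATGCagatcttc
XTH19: agagatctaataAAAATGAagtctttt
The windows lie at chr4:776123-776149 on the minus strand (AGY1), chr2:10329590-10329616 minus (ALDH11A3), chr5:4397806-4397832 plus (SVR3) and chr1:21030837-21030863 plus (EMB1303). Those of TOC159 and FAD6 lie at chr4:1104751-1104777 plus and chr4:15059662-15059688 minus, and those of CA2 and ICL at chr5:4758242-4758268 plus and chr3:7655862-7655888 minus. HAT1 has its window at chr4:9739847-9739873 plus, TRFL1 at chr3:17153627-17153653 plus, RUB1 at chr1:11219406-11219432 minus and XTH19 at chr4:14829954-14829980 minus. Each holds the last bases of the 5′ leader and the first codons of the CDS.

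The mRNA libraries held 30997341 to 37245819 CDS reads. The RP libraries held 4843438 (dark) and 4617343 (light) in repeat 1, and 14974871 and 40972194 in repeat 2. CDS reads made up 95.8 to 98.3% of RP reads and 79.4 to 81.2% of mRNA reads. The genes examined took 75.4 to 92.0% of the CDS reads. In the RP libraries the share of reads in 5′ leaders was lower after light, at 2.56% and 1.39% in repeat 1 and 1.93% and 1.498% in repeat 2, and the share in 3′ trailers went from 1.63% to 0.613% and from 0.566% to 0.247%. Of the mRNA CDS reads in repeat 1, the plastid genome supplied 2.59% in darkness and 4.54% after light, against 0.253% and 0.369% in repeat 2, so the repeats stood apart. Its share of RP reads went from 0.652% to 2.496% and from 1.23% to 2.88%. These library-wide shares moved with light, and their part in the values below was not tested.

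The distribution of the change was narrow, with a longer upper tail. In repeat 1 the median was -0.06 and the middle 90% of genes lay between -0.52 and 0.65. In repeat 2 the median was again -0.06 and that range was -0.45 to 0.64. The SD over genes was 0.37 and 0.36, less than that of the light change in mRNA (0.71 and 0.75) or in RP reads (0.81 and 0.83). Counting error alone gave a median SE of 0.165 in repeat 1 and 0.0901 in repeat 2. The values of both repeats correlated across the 8622 genes (Pearson's r = 0.63, Spearman's rho = 0.54, a description over genes, which are not independent replicates), and r was 0.70 over the 3259 genes with at least 200 reads in every library. The sign was the same in both repeats for 6193 genes (71.8%), of which 2378 were higher and 3815 lower.

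**Figure D1:**
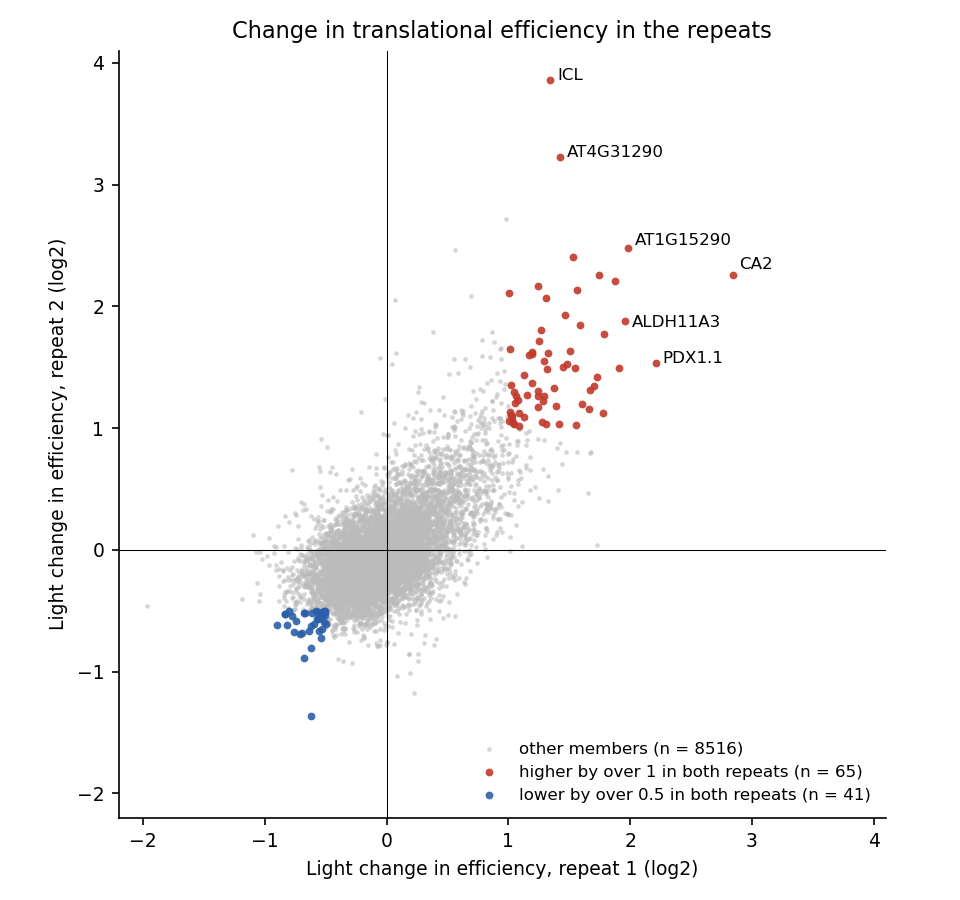
Light change in translational efficiency (log2) of the 8622 genes in repeat 1 (x) and repeat 2 (y), 1 point per gene; red marks the 65 genes higher by over 1 in both repeats, blue the 41 lower by over 0.5 in both. The cloud extends further to the upper right than to the lower left. No gene lies past 1 in opposite directions, but only 9 genes in repeat 1 and 4 in repeat 2 lie below -1.

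The threshold of 0.5 gave the same shape. In both repeats 384 genes were higher by more than 0.5 and 41 lower (0.476%), and 7 genes passed it in opposite directions. Among the latter were TLP2, a Tubby-like protein (-0.54 and 0.91), and DI19, a zinc finger protein (-0.56 and 0.68). At the edge of the read minimum, the 803 genes whose poorest library held 50 to 59 reads had a median fitted change of -0.05, and the 949 genes with 40 to 49 reads, which were left out, had -0.07.

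The genes with the smallest p on the higher side included proteins that act in the plastid and enzymes of the cytosol. AGY1 (AT4G01800), the SecA ATPase that drives proteins into the thylakoid, had 34.1 and 31.7 reads per 1e6 (counts scaled to the TMM-adjusted library size, CPM) of RP reads in the dark, and 149 and 178 CPM after light. Its mRNA was at 117 and 113 CPM in the dark and at 185 and 166 CPM after light. The RP libraries were thus far apart between conditions while the mRNA libraries differed less, without overlap in either. The fitted efficiency change was 1.70 ± 0.32 (SE, n = 2 libraries per group), with 1.46 and 1.93 in the repeats. The unadjusted p was 0.00134 in edgeR and the adjusted p 0.000152 in DESeq2. SEs of fitted values, here and below, are from the edgeR fit without the repeat number, so shifts shared by libraries of a repeat enter them. The spread of counts beyond counting error (common coefficient of variation) was 0.39 in that fit and 0.17 with the repeat number as a block.

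ALDH11A3 (AT2G24270), the cytosolic non-phosphorylating glyceraldehyde-3-phosphate dehydrogenase, had mRNA at 401 and 364 CPM in the dark and 431 and 372 CPM in the light. Its RP reads went from 127 and 123.05 CPM to 532 and 463 CPM. The mRNA values overlapped between conditions and the RP values did not. The efficiency change was 1.92 ± 0.37 (1.96 and 1.88 in the repeats; unadjusted p = 0.00153 in edgeR, adjusted p = 9.07e-06 in DESeq2), the smallest p in DESeq2. In edgeR its RP reads rose by 1.99 ± 0.27 (adjusted p = 0.0111), whereas its mRNA change of 0.07 ± 0.26 did not pass (adjusted p = 0.939).

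SVR3 (AT5G13650), a plastid GTPase of the elongation factor family, rose in both kinds of read. Its mRNA was at 83.5 and 84.8 CPM in the dark and 341 and 367 CPM in the light, and its RP reads at 21.8 and 25.02 CPM and then 299 and 518 CPM. Neither kind of read overlapped between conditions, and the RP reads spanned the wider range. In edgeR the mRNA rise was 2.07 ± 0.33 (adjusted p = 0.0240) and the RP rise 4.12 ± 0.36 (adjusted p = 0.00430). The efficiency change was 2.05 ± 0.46 (adjusted p = 0.0337 in DESeq2). AT1G15290, a tetratricopeptide repeat protein, had a like course, with mRNA at 53.8 and 74.1 and then 274 and 248 CPM, and RP reads at 21.6 and 29.0 and then 435 and 543 CPM. Its efficiency change was 2.24 ± 0.43 (1.98 and 2.48 in the repeats).

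AT4G31290, of the ChaC family of glutathione-degrading enzymes, was the reverse in mRNA. Its mRNA was at 67.5 and 76.6 CPM in the dark and 23.3 and 17.5 CPM after light, a change of -1.82 ± 0.33 in edgeR (adjusted p = 0.0328). RP reads were at 14.3 and 8.22 CPM in the dark and 13.2 and 17.8 CPM in the light and overlapped between conditions. The efficiency change was 2.31 ± 0.47, with 1.42 in repeat 1 and 3.23 in repeat 2. MPK17 (AT2G01450), a mitogen-activated protein kinase, showed the same arrangement: mRNA went from 745 and 908 CPM to 237 and 262.5 CPM, while RP reads went from 224 and 193 CPM to 179 and 171 CPM. Its mRNA fell by 1.73 on the log2 scale (adjusted p = 0.0235 in edgeR), the RP change was -0.25 ± 0.27 (adjusted p = 0.667), and the efficiency change was 1.47 ± 0.38 (adjusted p = 0.0437 in DESeq2).

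MPK17 (unadjusted p = 0.00690 in edgeR) was not among the 12 genes with the smallest p on the higher side. The others of these 12 were AT1G19720, a pentatricopeptide repeat protein (1.58 ± 0.31), and EMB2730, the plastid exoribonuclease RNR1 (1.43 ± 0.30). EMB1303, needed for chloroplast formation (1.55 ± 0.33), ACDO1, an ABC1-like kinase of plastoglobules (1.49 ± 0.32), and AT1G73885, an AT-rich interactive domain protein annotated to the thylakoid (1.51 ± 0.33), followed. TOPP1, a type 1 protein phosphatase (1.17 ± 0.29), and AT3G06980, a chloroplast DEAD-box helicase (1.30 ± 0.32), completed them. In EMB2730, for example, the mRNA was at 40.5 and 48.6 CPM in the dark and 48.0 and 47.7 CPM in the light, while RP reads went from 12.5 and 14.6 to 36.4 and 42.3 CPM and did not overlap. In DESeq2 the called genes were AGY1, AT1G15290, ALDH11A3, AT1G19720, AT4G31290, AT1G73885, SVR3, MPK17 and CCD1, a carotenoid cleavage dioxygenase (1.21 ± 0.32, adjusted p = 0.0337).

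**Figure D2:**
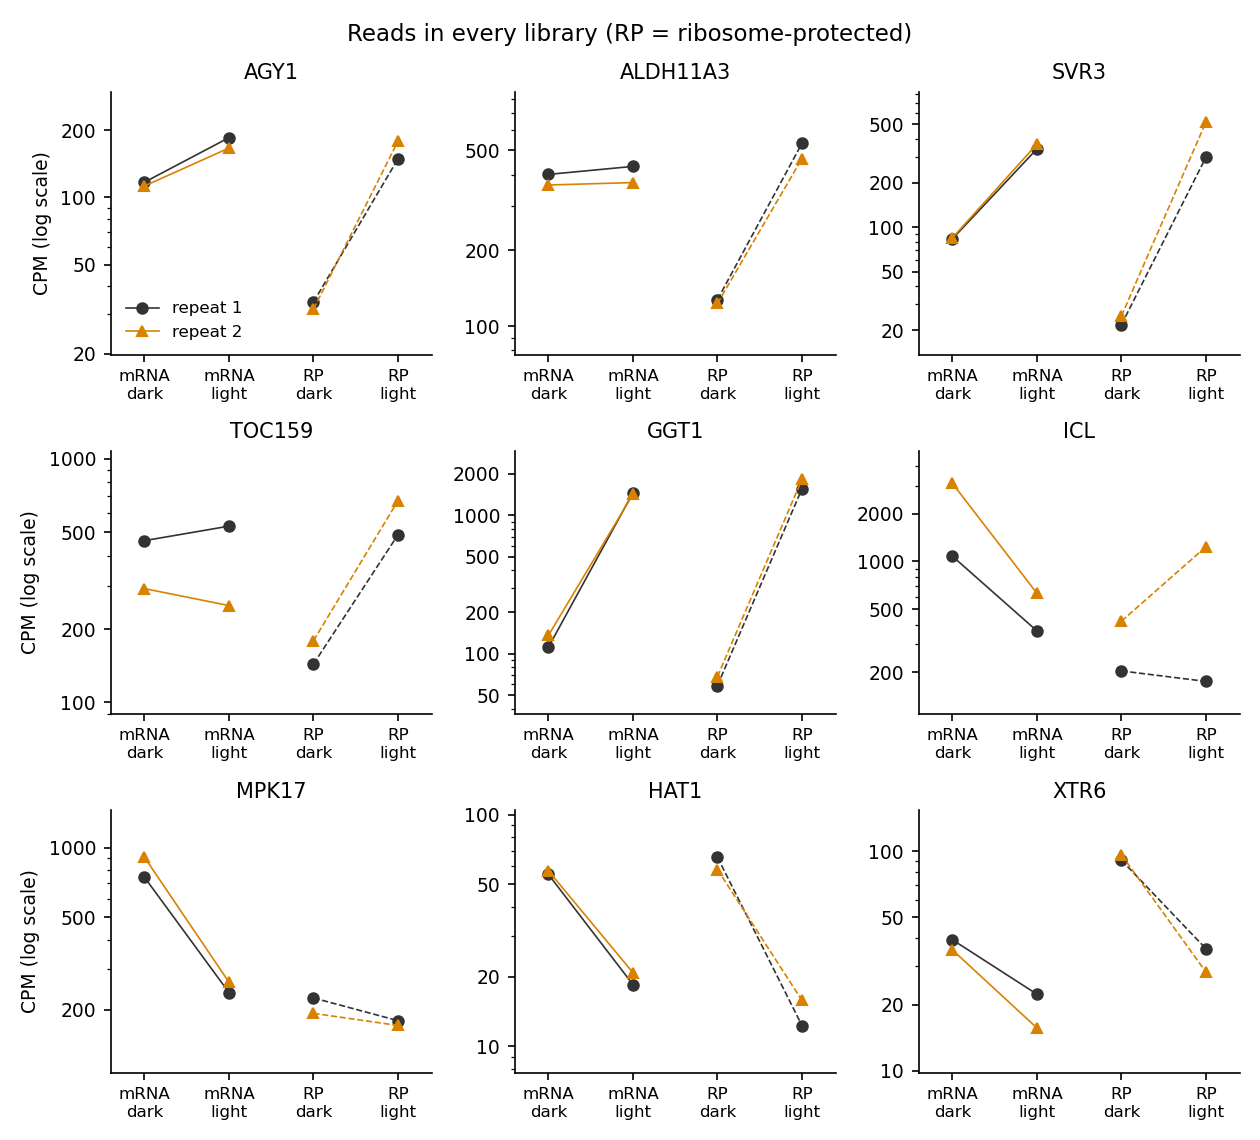
CPM (log scale) of 9 genes in the 8 libraries, circles for repeat 1 and triangles for repeat 2, lines joining dark and light of the same repeat (solid for mRNA, dashed for RP). In AGY1, ALDH11A3 and TOC159 the RP reads separate the conditions more than the mRNA does, in MPK17 the mRNA goes down while RP reads stay near their dark level, and in HAT1 and XTR6 the RP reads go down further than the mRNA.

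The 65 genes higher by over 1 in both repeats began from low ribosome loading. Their median log2 ratio of RP to mRNA CPM was -1.47 and -1.13 in the dark (repeats 1 and 2) and -0.09 and 0.29 after light, against 0.10 and 0.22 in the dark and 0.11 and 0.20 after light over all 8622 genes. Since the group was picked for a large change, a low dark ratio is partly built into it. Their mRNA took every course, from -2.85 to 3.54 with a median of 0.27, while the median change of RP reads was 1.75. In edgeR RP reads rose in 28 of the 65 and fell in 1, and mRNA rose in 8 and fell in 6 (adjusted p under 0.05). Among all 8622 genes RP reads rose in 334 (3.87%) and fell in 160 (1.86%), and mRNA rose in 208 (2.41%) and fell in 84 (0.974%). These counts and their balance depend on the repeats: with the repeat number as a block, RP reads rose in 1288 and fell in 1528 of the 8622 genes, and mRNA rose in 1384 and fell in 1364. Over all 19823 tested genes, without the block, RP reads changed in 6.84% (4.71% higher, 2.12% lower) and mRNA in 4.78% (3.34% higher, 1.44% lower). The group leaned to genes with many reads: 36 of the 65 lay in the bin of highest mean CPM when the 8622 genes were divided into 5 bins, and 1 in the lowest. The efficiency, mRNA and RP comparisons use the same libraries, so these counts stand side by side and do not support each other.

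**Figure D3:**
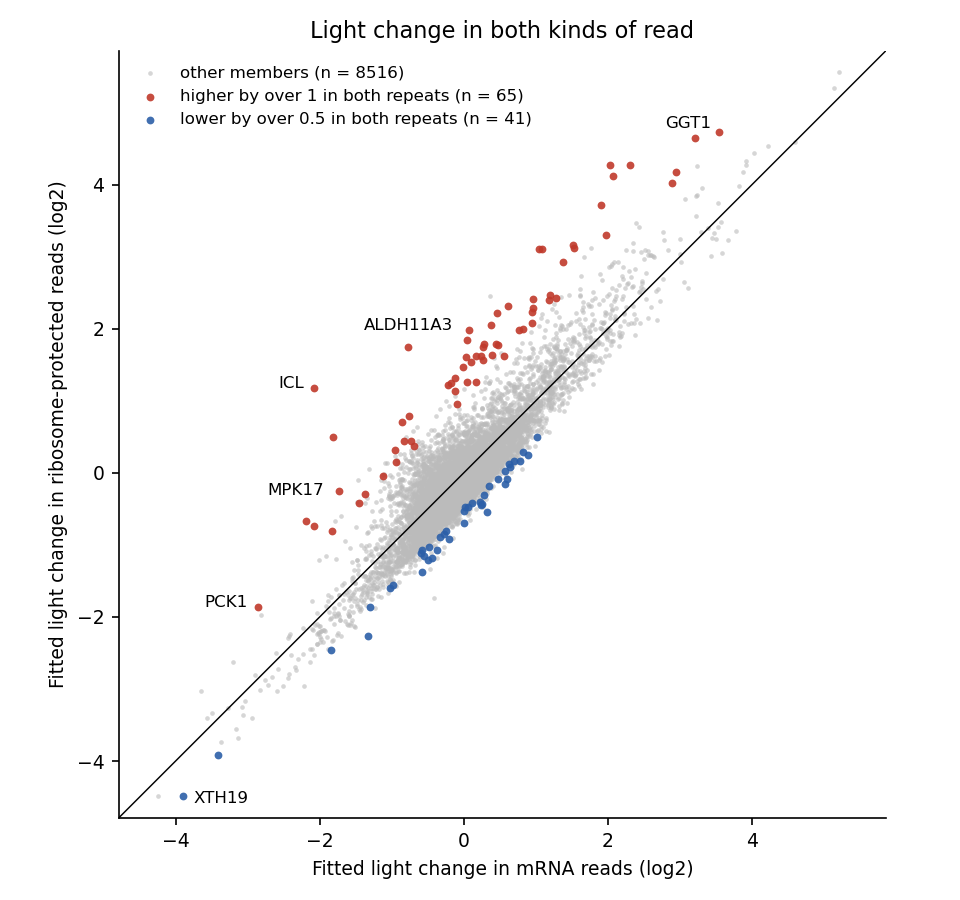
Fitted light change in mRNA reads (x) and in RP reads (y), both log2, of the 8622 genes, with the line of equal change; a point above the line has higher efficiency after light. The 65 red genes run parallel to the line from PCK1 (-2.85 in mRNA) to GGT1 (3.54 in mRNA), and the 41 blue genes lie below it.

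The group held several proteins that bring other proteins into the plastid and its thylakoids. The lists of plastid import, targeting, turnover and gene expression, photorespiration, lipid, starch, reserve and carbonic anhydrase genes that follow were drawn up after such genes had been seen in it, so their counts are a description. TOC159 (AT4G02510), the receptor that binds photosynthetic preproteins at the outer envelope, had mRNA at 461 and 293 CPM in the dark and 529 and 249.6 CPM in the light. Its RP reads went from 144 and 179 CPM to 488 and 672 CPM, and the mRNA values overlapped between conditions. The efficiency change was 1.80 ± 0.64 (1.56 and 2.14 in the repeats). TOC33, the partner GTPase of that receptor, had 1.45 ± 0.72, and TIC40, a co-chaperone of the inner envelope, 1.03. By contrast TOC120 (-0.17), TOC132 (0.03) and TOC34 (-0.12), the receptor forms associated with non-photosynthetic proteins, were near the median of all genes. Of 9 genes of the TOC and TIC complexes, 6 were higher in both repeats and the median was 0.35, with 0.16 without the RP light library and 0.68 without the RP dark library of repeat 2; no difference between the receptor forms was tested.

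ALB3 (AT2G28800), the insertase of light-harvesting proteins in the thylakoid membrane, had mRNA at 289.6 and 212 CPM in the dark and 329.7 and 321 CPM in the light, and RP reads at 99.4 and 59.9 CPM and then 279.7 and 380.5 CPM. The RP libraries did not overlap and the change was 1.68 ± 0.50. CPSRP54, the signal recognition particle subunit that hands proteins to ALB3, had 1.05, and SCY1, the thylakoid Sec channel, 1.03. CPFTSY, the receptor of that particle, was at 0.01. The 9 genes for thylakoid and envelope targeting had a median of 0.85 (0.38 without the mRNA dark library of repeat 2), and 7 were higher in both repeats.

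Plastid proteases and chaperones were higher in both repeats in most genes. Of 19 CLP, FTSH and DEG protease genes, 16 were higher in both repeats (median 0.57). They were led by the CLP chaperones CLPC1 (1.38 ± 0.63) and HSP93-III (1.14 ± 0.46) and by FTSH11 (1.08), while the proteolytic core subunits CLPP4 (-0.10) and CLPP5 (-0.02) were not higher. Of 9 genes listed as plastid chaperones 8 were higher in both (median 0.59), with CPN60A, a chaperonin subunit that folds Rubisco, at 1.21 ± 1.31. CPN10, a small chaperonin, was the lowest at -0.45, and whether it acts in the plastid with CPN60A was not examined. Without the mRNA dark library of repeat 2 the chaperone median was -0.31.

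Plastid gene expression was represented by translation factors and RNA-binding proteins. SCO1 (AT1G62750), the plastid elongation factor G, had mRNA at 91.7 and 129 CPM in the dark and 919 and 717 CPM in the light, with RP reads at 53.5 and 87.1 CPM and then 1116.5 and 1168.5 CPM, a change of 1.13 ± 0.51. The DEAD-box helicase RH3 (symbol emb1138), which acts in plastid intron splicing and ribosome assembly, had 2.02 ± 0.86 (1.88 and 2.21 in the repeats). Its mRNA was at 94.7 and 236 and then 348 and 355 CPM, and its RP reads at 33.9 and 95.1 and then 457 and 659.9 CPM, so that the conditions did not overlap. The RNA-binding proteins RBP31 and CP29 had 1.27 and 1.05. Among 6 plastid translation factors 5 were higher in both (median 0.57; 0.24 and 1.39 without the RP dark library of repeat 1 and of repeat 2), and among 10 plastid RNA-binding proteins and helicases 8 were (median 0.53; -0.07 without the mRNA dark library of repeat 2).

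Among lipid enzymes, desaturases of the plastid gave the highest values. FAD7 (AT3G11170), an omega-3 desaturase of the plastid, had mRNA at 31.7 and 77.95 CPM and then 187 and 223 CPM, and RP reads at 12.5 and 22.9 and then 175 and 295 CPM, with no overlap. Its change was 1.82 ± 0.74, and that of FAD6, the plastid omega-6 desaturase, was 2.06 ± 0.63. FAD5, also in the plastid, had 1.03, and SSI2, the soluble stearoyl desaturase of the plastid, 0.23. The endoplasmic reticulum enzymes FAD2 and FAD3 had 0.08 and 0.07 in repeat 1 but 1.62 and 0.79 in repeat 2, so their values rest on repeat 2; no difference between compartments was tested. The galactolipid synthases DGD1 (-0.04) and DGD2 (-0.19) were near the median of all genes. Over the 10 desaturases and galactolipid synthases, 7 were higher and 3 lower in both repeats. Their fitted median was 0.67, but the repeats stood apart, with 0.23 in repeat 1 and 0.94 in repeat 2. The fitted median was 0.39 without the RP light library of repeat 2 and 1.06 without that of repeat 1.

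Photorespiratory enzymes, which recover carbon from the oxygenation product of Rubisco, had large mRNA changes beside higher efficiency. GGT1 (AT1G23310), the glutamate:glyoxylate aminotransferase of peroxisomes, had mRNA at 111 and 136 CPM and then 1454 and 1419.7 CPM, and RP reads at 58.8 and 68.2 and then 1556 and 1824 CPM. Its mRNA rose by 3.54 ± 0.33 (adjusted p = 0.00683 in edgeR) and its efficiency change was 1.19 ± 0.42. GOX1, a glycolate oxidase (1.44 ± 1.03), AGT, the alanine:glyoxylate aminotransferase (1.28 ± 1.31), and GLU1, the ferredoxin-dependent glutamate synthase (1.22 ± 0.61), had values like it. Of 12 such genes 10 were higher in both repeats (median 0.66; 1.14 without the RP dark library of repeat 2). GOX1 and GOX2 are close copies, and the treatment of reads that match several places is not stated, so the split of reads between them is uncertain.

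Among enzymes of reserve use the repeats of 1 gene differed in RP reads. ICL (AT3G21720), the isocitrate lyase of the glyoxylate cycle, had mRNA at 1079 and 3108 CPM in the dark and 365 and 630.2 CPM in the light. Its RP reads went from 204 to 175 CPM in repeat 1 and from 420.2 to 1238 CPM in repeat 2. The repeats thus went opposite ways in RP reads, and the efficiency change was 1.34 in repeat 1 and 3.86 in repeat 2 (fitted 3.25 ± 1.37). PCK1, the phosphoenolpyruvate carboxykinase of gluconeogenesis, had mRNA at 1313 and 1782 and then 234 and 194 CPM and RP reads at 583 and 1051 and then 214 and 235 CPM, with 1.05 and 1.04 in the repeats. MLS, the malate synthase of the same cycle as ICL, had 0.23. Over 21 genes of oil mobilization the median was 0.07, and 10 were higher in both repeats.

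Further genes of the group were an anhydrase, starch enzymes and a transcription factor. CA2 (AT5G14740), a beta carbonic anhydrase, had the largest repeat 1 value of all 8622 genes, 2.85, with 2.26 in repeat 2. Its mRNA was at 1431 and 1289.7 CPM in the dark and 712 and 879.7 CPM in the light, and RP reads at 282 and 616 and then 1009 and 2011 CPM, with no overlap in either. CA1, the plastid form, had 0.35, and the median of 10 carbonic anhydrase genes was -0.12 (0.29 without the RP dark library of repeat 2). PWD, a glucan dikinase of starch breakdown (1.44 ± 0.62), and BAM4, a plastid beta-amylase without catalytic activity (1.27 ± 0.55), stood above a median of 0.19 for 13 starch genes. That median was -0.04 without the mRNA dark library of repeat 2. GATA4 (AT3G60530), a zinc finger transcription factor, had mRNA at 127 and 116 and then 34.2 and 23.4 CPM, and RP reads at 37.4 and 57.8 and then 30.7 and 26.9 CPM. Its change was 1.34 ± 0.42.

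Lower efficiency after light was smaller in size. Among the 8622 genes the smallest unadjusted p on that side was 0.0630 in edgeR without a block, against 0.000142 among all tested genes. The 12 of the 8622 genes with the smallest p had fitted changes between -0.82 and -0.52. HAT1 (AT4G17460), a class II homeodomain-leucine zipper factor, had mRNA at 55.2 and 57.2 CPM in the dark and 18.5 and 20.8 CPM in the light, and RP reads at 65.5 and 58.0 and then 12.3 and 15.8 CPM. Both kinds of read fell in edgeR, mRNA by 1.52 (adjusted p = 0.0168) and RP reads by 2.13 (adjusted p = 0.00581), and the efficiency change was -0.61 ± 0.30. TRFL1 (AT3G46590), a TRF-like DNA-binding protein, kept mRNA at 65.4 and 73.4 and then 53.8 and 59.6 CPM while RP reads went from 35.4 and 22.8 to 12.8 and 13.99 CPM. Its change was -0.82 ± 0.37 (-1.19 and -0.40 in the repeats).

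RUB1, a ubiquitin-related modifier joined to cullins (-0.56 ± 0.28), AHP2, a phosphotransfer protein of the cytokinin pathway (-0.52 ± 0.28), and TAF7, a subunit of the general transcription factor TFIID (-0.54 ± 0.29), were also among the 12. So were AT5G57210, a Rab-GAP domain protein (-0.75), AT4G00170, of the VAMP family (-0.62), AT2G23950, a receptor-like kinase (-0.58), and AT3G16180, a transporter (-0.60). AT1G61667 (-0.70), AT3G06868 (-0.56) and AT1G53645, a hydroxyproline-rich glycoprotein (-0.73), completed them. None of the 12 passed 0.05 before adjustment without a block. With the repeat number as a block 11 of the 12 did in edgeR (unadjusted p from 0.0160 to 0.0550 over the 12), and none after adjustment, so these are values and not called changes.

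The 41 genes lower by over 0.5 in both repeats held many secreted and cell wall proteins. In the annotation 14 of the 41 were placed in the endomembrane system, the wall or outside the cell (34.1%, against 11.5% of the 8622 genes), and 2 in the chloroplast or plastid (4.88% against 12.9%). XTR6 (AT4G25810), a xyloglucan endotransglycosylase that remodels the wall, had mRNA at 39.5 and 35.5 CPM in the dark and 22.3 and 15.7 CPM in the light, and RP reads at 90.9 and 96.1 and then 35.9 and 28.1 CPM. Its change was -0.57 ± 0.35. XTH19, of the same family, had mRNA at 57.3 and 213 and then 9.77 and 8.36 CPM, and RP reads at 161 and 478 and then 17.0 and 11.7 CPM, a change of -0.69 and -0.68 in the repeats. In neither gene did dark and light overlap. The arabinogalactan proteins AGP21 (-0.70) and AGP1 (-0.49), the fasciclin-like FLA7 (-0.53), the laccase LAC17 (-0.55) and the expansin EXPA11 (-0.50) were others.

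The median log2 ratio of the 41 genes was 1.20 and 1.06 in the dark and 0.52 and 0.49 after light, above that of all genes in both conditions. As for the 65, part of this follows from how they were picked.

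Among families listed by annotation, those of cell growth lay below the median of all genes, which was -0.08. Of 24 expansins and xyloglucan endotransglucosylases, which loosen the wall, 19 were lower in both repeats (median -0.32, from -0.59 to 0.19). Of 19 aquaporins, the water channels, 15 were (median -0.29), for example PIP2B (AT2G37170), with mRNA at 1117 and 1001 and then 1187 and 1122 CPM and RP reads at 2364 and 2056 and then 1782 and 1772 CPM. Dark and light overlapped in neither kind of read, with mRNA slightly higher and RP reads lower after light, and the change was -0.44 ± 0.43. Histones (median -0.19, 20 of 25 lower in both) and tubulins and actins (-0.24, 14 of 24, but 0.01 without the RP dark library of repeat 2) also lay lower. So did cellulose and pectin enzymes (-0.17, 42 of the 61 examined, out of 292 listed). Without the mRNA dark library of repeat 1 their median was -0.02, above the -0.08 of all genes in that fit. Gibberellin and brassinosteroid genes lay lower too (-0.21, 16 of 21), among them DWF4, a brassinosteroid synthesis enzyme (-0.37). All 8 root markers with enough reads were lower in both, from -0.39 to -0.14. Lower in both was found for 3815 of all 8622 genes (44.2%), and edgeR called 0 genes in each of these lists, with 0 at an unadjusted p under 0.05 and none by DESeq2.

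Of 276 listed pentatricopeptide repeat proteins, which process organelle RNA, 20 were among the genes examined. These 20 lay above the median of all genes (0.41, 14 of 20 higher in both, against 27.6% of all genes), as did ribosomal proteins of organelles. The latter had 18 of 26 higher in both but differed between repeats, with medians of 0.66 and 0.16, and their fitted median of 0.28 was -0.67 without the mRNA dark library of repeat 2. Cytosolic ribosomal proteins had a median of 0.08, and 69 of 147 were higher in both (-0.47 without the RP light library of repeat 2). The light signalling factors had a median near 0 over 29 genes, 12 of them higher and 12 lower in both repeats, and PHYA (-0.01), COP1 (0.03) and PIF3 (-0.01), a photoreceptor, a ubiquitin ligase and a bHLH factor of the dark program, were near 0. COL3, a B-box factor (1.097 ± 0.55), and PHOT2, the phototropin of strong blue light (0.88), were the highest of them. Of 18 clock genes LCL1, a MYB-like factor, was highest at 0.99, and the median of 0.07 was -0.37 without the mRNA dark library of repeat 1. Genes annotated to the chloroplast or plastid, 1111 in all, had a median of 0.05, and 492 were higher in both repeats (44.3%). The 115 photosynthesis genes left out by family had a median of 0.37, and the 83 auxin genes -0.22.

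Other lists lay close to the median of all genes or changed sign when 1 library was left out. Transcription factors of the bHLH, MYB, bZIP, ERF, WRKY and homeobox families had a median of -0.14, with 93 of 172 lower and 27 higher in both repeats. Without the mRNA light library of repeat 1 it was 0.09. Nuclear-encoded subunits of the mitochondrial respiratory chain had -0.14 (23 of 36 lower in both, 0.18 without the RP dark library of repeat 2). Late embryogenesis abundant and oil body proteins, which are stored or protective in the seed, had -0.20 (19 of 27 lower in both, 0.22 without the mRNA light library of repeat 1). Protein folding and translocation genes of the endoplasmic reticulum had -0.17 (10 of 11 lower in both, 0.12 without the RP light library of repeat 1). The proteasome (-0.02), which degrades ubiquitin-tagged proteins, and initiation factors of translation (0.03) were near 0 in the full fit.

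**Figure D4:**
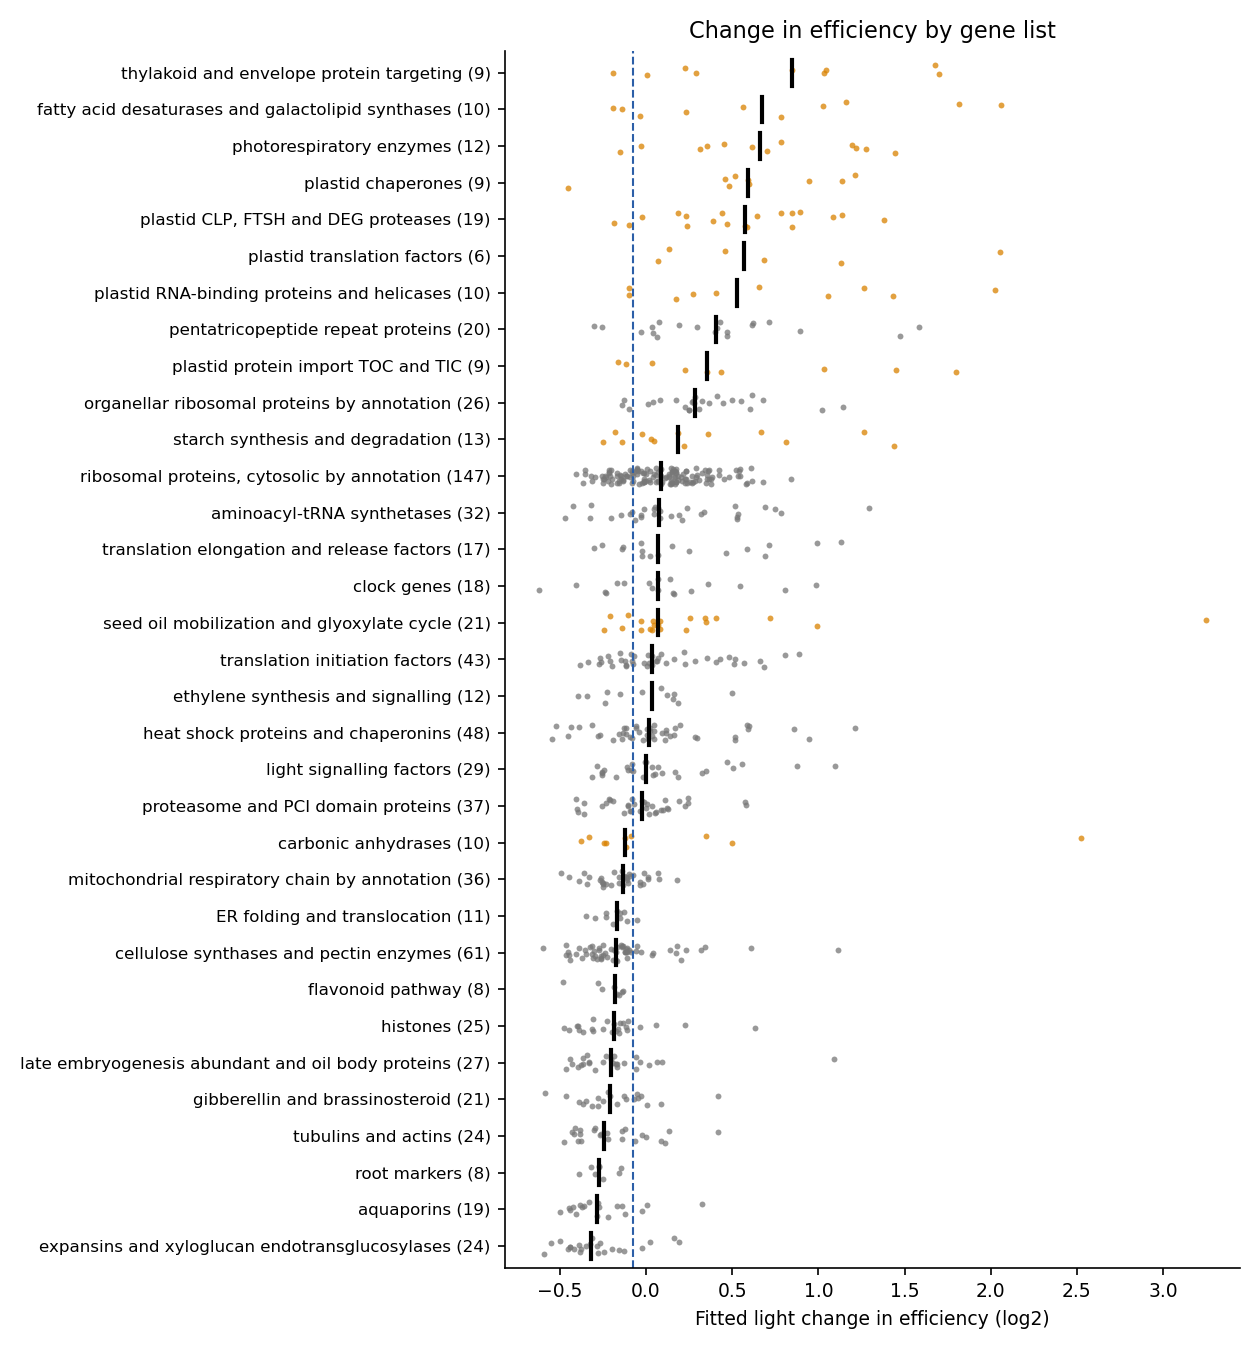
Fitted light change in efficiency (log2, x) of the genes of each list, 1 point per gene, with the list's median as a black bar and the number of genes in brackets; the dashed line is the median of all 8622 genes, -0.08. Orange lists were drawn up after single genes had been seen among the highest values, so the place of those to the right is partly chosen. The grey lists of wall, channel, and gibberellin and brassinosteroid genes lie left of the line, and the grey list of ethylene genes (median 0.03) lies right of it.

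The 5′ leader, which the choice of genes did not use, differed with the change. The leader sequence was taken for 8283 genes, and GC content was compared over 8117 with at least 20 bases. In 5 bins of rising leader GC the median change was higher at every step, from -0.17 to 0.10 in repeat 1 and from -0.15 to 0.08 in repeat 2. The bins ended at 33.6, 37.0, 39.8, 43.3 and 70.0% GC. Across genes Pearson's r was 0.26 in both repeats. The order of the end bins was the same among genes annotated to the chloroplast (fitted medians -0.06 and 0.27) and among the others (-0.19 and 0.06). CDS GC gave no such course, with r = 0.04 and -0.06, and leader GC and CDS GC correlated with r = -0.05.

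**Figure D5:**
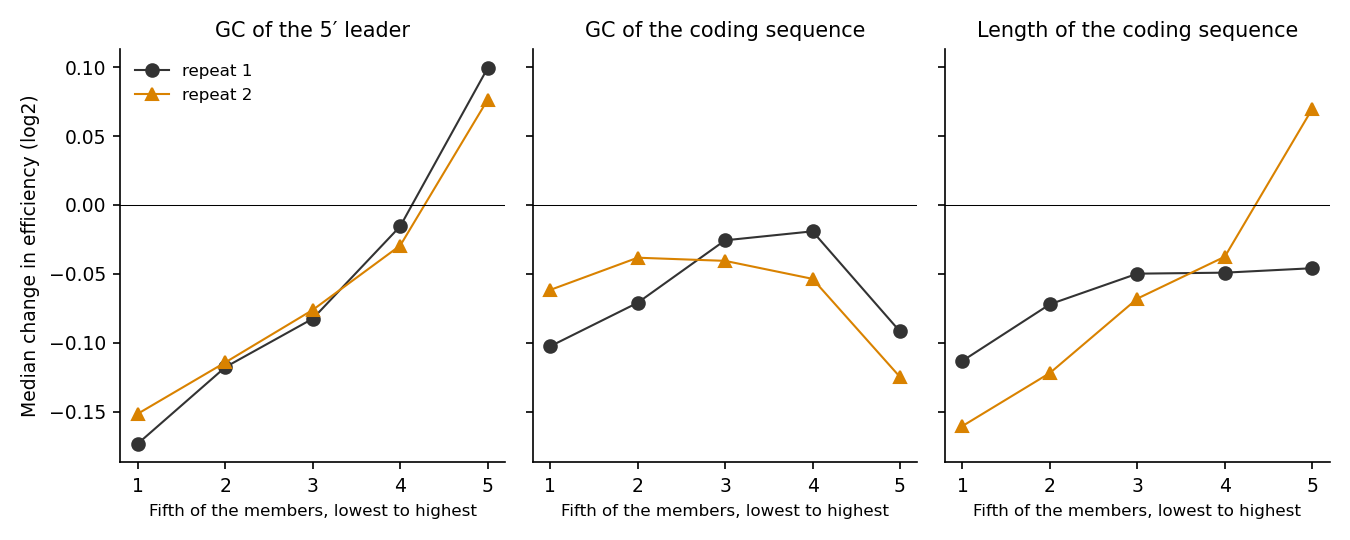
Median light change in efficiency (log2) in 5 equal bins of genes ordered by leader GC, CDS GC and CDS length, circles for repeat 1 and triangles for repeat 2. The medians climb with leader GC alike in both repeats, from -0.17 and -0.15 to 0.10 and 0.08, whereas the rise with CDS length is mostly in repeat 2.

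Longer coding sequences went with higher values mainly in repeat 2, from -0.16 in the bin up to 732 bases to 0.07 in the bin from 2118 bases, against -0.11 and -0.05 in repeat 1. Upstream ATG triplets in the leader, which can start short upstream reading frames, were present in 34.8% of the 8283 leaders and in 10 of the 62 leaders (16.1%) of genes higher by over 1 in both repeats. In repeat 1 the median went from -0.04 without any to -0.17 with 4 or more, while repeat 2 stayed at -0.07 and -0.06. A G at +4, as in most windows printed above, was found in 50 of those 62 genes (80.6%), in 60.5% of all and in 63.4% of the genes annotated to the chloroplast. Among genes lower by over 0.5 in both it was 20 of 39 (51.3%). The motif TAGGGTTT, searched with its reverse complement AAACCCTA, stood in 11.8% of all leaders and in 6 of the 62 (9.68%). The overlapping motif AAAACCCT, searched on both strands, stood in 7.88% and in 3 of the 62 (4.84%). These are descriptions of chosen groups, without a test.

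RP reads inside leaders were few for the named genes. Over the 12 genes with the smallest p on the higher side they came to 25 and 36 reads in the dark and 8 and 239 in the light, beside 1638 and 5228, then 8115 and 75066 CDS reads. The leader share of their RP reads was 1.503% and 0.684% in the dark and 0.0985% and 0.317% after light, and that of their mRNA reads 3.92% and 4.21%, then 2.02% and 2.07%. Over all 8622 genes the RP share was 1.22% and 1.52% in the dark and 0.648% and 1.32% after light.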

How the data were processed

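The authors deposited whole-number read counts per gene for 5′ untranslated regions, CDS and 3′ untranslated regions, per the file headers, with region lengths; 24 RPKM columns were not used. The build was TAIR 10 per the submitters' processing notes; no source used here gives the aligner, the counting tool or the use of strand. CDS counts were filtered (filterByExpr; 19823 genes), scaled by TMM and fitted with edgeR 4.0.16 (R 4.3.3; quasi-likelihood, 1 mean for each of 4 groups, two-sided tests, Benjamini-Hochberg over all tested genes, threshold 0.05). The contrasts were the interaction and both light changes; DESeq2 1.42.0 was an alternative. Values within a repeat are log2 CPM with a prior count of 2. The fit was also run on simulated counts. These were drawn without a shift shared by libraries of the same repeat number, unlike the real ones, so they do not show how the fit behaves here. SEs of counting cover counting error only.

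The genes, families and lists were chosen with earlier results of these data known, and 11 of 42 lists after seeing values; 2 thylakoid genes were moved to the photosynthesis family after they were seen among the highest. Location annotations that give only a number of compartments entered no location list. Named genes were the 12 smallest unadjusted p in each direction with the same sign in both repeats, as no gene was called, and from each list the 2 with the smallest p; not all of these are printed; other genes named were chosen after their values were seen, as were the groups of 65 and 41. Of 14 genes listed for conserved upstream peptides, 11 were listed at 0 CDS reads in all libraries, so that list is not described. Leaders and start windows came from the TAIR10.1 annotation, in which 8482 of the 8622 genes had a model with the deposited CDS length.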

Additional observations from a re-analysis of the deposited data

How the results depend on the processing

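edgeR called 0 of the 8622 genes for efficiency under every alternative: other scalings, no filter, summed regions, nuclear library sizes, minimum reads of 20 or 200, and without each library in turn (0 to 0 of these and 0 to 0 of all genes called; 42 to 95 of the 8622 genes at an unadjusted p under 0.05). DESeq2 called 9 of them, and 15 over all genes. The library labels share only a repeat number, so the replicate block was an alternative. It called 0 genes for efficiency, with 544 (6.31%, beside 6.22% of all tested genes) at an unadjusted p under 0.05. In mRNA it called 2748 against 292, and in RP reads 2816 against 494. Of its calls 1384 and 1288 were higher (33.6% and 32% of all tested genes were called). With a block for each kind of library, chosen after seeing the data for these 2 contrasts, the counts were 3194 and 3158. Same-numbered libraries deviated together (r = 0.575 to 0.806 across genes). With a prior count of 0.5, 65 genes were higher by over 1 in both repeats; after centring on the median or without TMM, both added after seeing the data, 81 and 60 were. Of 416 values of 26 named genes none reversed sign. These genes were picked on the same data for a small p, most also for the same sign in both repeats, so this was largely fixed by the choice. Leaving out 1 library unbalances the repeats: medians of 26 of 42 lists changed sign in some such fit, among them organellar (-0.67 to 1.47) and cytosolic ribosomal proteins (-0.47 to 0.68), tubulins and actins, light signalling, clock and oil mobilization genes, but not expansins (-0.36 to -0.13), aquaporins (-0.35 to -0.16), histones or pentatricopeptide proteins. The lower RP depth of repeat 1 gives its values the larger counting error.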
